A study of Mus musculus with 9 samples.

Results

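Lingguizhugan decoction, a Chinese herbal preparation, was compared with distilled water in operated mouse hearts. The comparison took the 3 libraries of TAC hearts given the decoction (LD) and the 3 libraries of TAC hearts given water (TAC), which are 6 of the 9 libraries of the study, and the 10955 of 21989 listed genes that reached an FPKM of 1 in no fewer than 3 of these 6 libraries. FPKM is the number of sequenced fragments per kilobase of gene and per M (mega) fragments of the library. All mice were male C57BL/6J, the tissue was heart, and the age was 18 to 20 weeks in every group. TAC, usually read as transverse aortic constriction, narrows the aorta. The LD mice carried the operation and the decoction, the TAC mice carried the operation and distilled water, and the 3 sham mice, used here only as a level, had a sham operation and distilled water. The labels speak of 3 biological repeats per group and name no dose, no time of tissue collection, no litter and no sequencing batch. The study's title places the decoction in heart failure and names MAPK and AKT signalling.

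A heart working against a narrowed aorta enlarges its muscle cells, activates fibroblasts that lay down collagen, and turns on genes of the fetal heart such as the natriuretic peptides. Immediate early genes encode transcription factors and feedback proteins whose RNA appears within minutes of a stimulus and is short-lived. The circadian clock runs in heart cells too: ARNTL (BMAL1) and CLOCK drive the genes of their own repressors, the PER and CRY proteins, and of NR1D1, which in turn represses Arntl. MAPK and AKT proteins are kinases that are controlled mainly by phosphorylation, which RNA levels do not show.

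The libraries differed in ways that the groups do not explain. With 1 step of the FPKM values taken as 1 fragment, totals were 8.39, 14.9 and 8.95 M fragments for TAC replicates 1 to 3. LD replicates 1 to 3 had 7.41, 18.0 and 16 M. In TAC replicates 2 and 3, 88.3% and 87.5% of the recovered counts from 12 to below 200 were even numbers, against 50.03% in TAC replicate 1 and 47.8% to 50.9% in the LD libraries. Both kinds of counts also occurred in sham hearts, where replicates 1 and 3 were mostly even (87.3% and 88.9%) and replicate 2 was not (48.0%). No LD library had mostly even counts, so values are also given for a set of 5 libraries without an excess of even counts, in which LD is set against TAC replicate 1. With a term for mostly even counts, which the TAC and sham libraries of both kinds allow, limma called 0 genes, with 205 higher and 158 lower at an unadjusted p under 0.05. On the first principal component, which held 28.7% of the variance, TAC replicate 3 (-49.3) and LD replicate 3 (43.9) were the far ends, and the remaining 7 libraries had scores from -8.66 to 17.4. All 6 cardiomyocyte, endothelial, macrophage and fibroblast marker genes checked for each type were above 0 in all 6 libraries, and the cardiomyocyte markers had the highest sum: 19200 to 23650 FPKM in TAC and 23600 to 44430 FPKM in LD. FPKM values below are scaled between libraries by the median of ratios, with factors between 0.855 and 1.12.

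**Figure D1:**
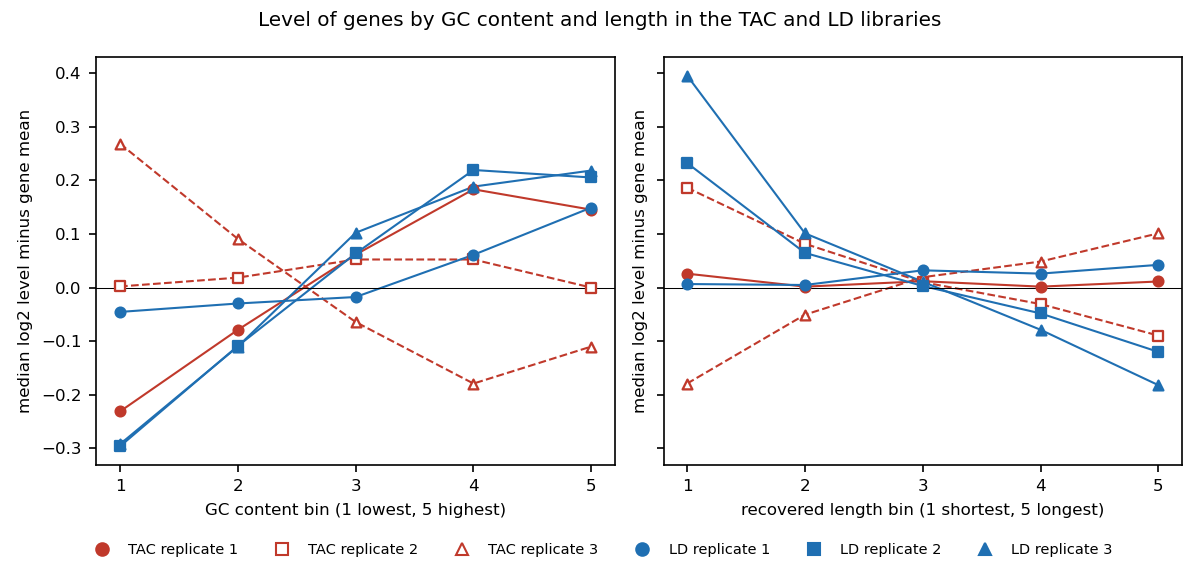
Median log2 level of genes, relative to each gene's mean over the TAC libraries, in 5 bins of equal gene number. Bins are by GC content (left) and recovered gene length (right), with 1 line per TAC or LD library. The TAC lines are thus set against their own group mean. Open symbols and dashed lines are the libraries whose recovered counts were mostly even. TAC replicate 3 starts at 0.268 in the bin of lowest GC content, where LD replicates 2 and 3 stand at -0.296 and -0.292, and LD replicate 3 reaches 0.395 in the bin of shortest genes.

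Levels also followed base composition and gene length. The median LD minus TAC difference was -0.22 on the log2 scale in the bin of genes with the lowest GC content and 0.18 in the bin with the highest, and it was 0.20 in the bin of shortest genes and -0.09 in that of the longest. The plot of levels by GC content and length shows that TAC replicate 3 ran one way and LD replicates 2 and 3 the other. TAC replicate 1 was close to LD replicates 2 and 3 in GC content. In the bin of lowest GC content it stood at -0.23 and LD replicate 1 at -0.05. After both trends were removed from each library by loess, limma still called 0 genes, with 864 at an unadjusted p under 0.05, among the 10638 genes (97.1%) that had a GC content and a length.

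No gene passed the threshold of an adjusted p under 0.05 in limma (0 of 10955, 0%). The smallest adjusted p was 0.269. At an unadjusted p under 0.05, limma gave 950 genes (8.67% of those tested), 498 higher in LD (4.55%) and 452 lower (4.13%). The 3 LD values lay all above or all below the 3 TAC values in 1275 genes (11.6%), 648 of them higher (5.92%) and 627 lower (5.72%). Limma's voom on the recovered fragments also called 0 genes, with 500 higher and 535 lower at an unadjusted p under 0.05. The genes and groups below are therefore described by their values, and none of them passed.

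Among the 12 genes of smallest p that were higher in LD, Pglyrp1, which encodes a peptidoglycan recognition protein of neutrophil granules, came first. Pglyrp1 was at 0.168, 0.195 and 0 FPKM in TAC replicates 1, 2 and 3, from 1, 2 and 0 fragments, and at 4.78, 1.71 and 3.21 FPKM in LD replicates 1, 2 and 3, from 25, 21 and 30 fragments. Its log2 difference was 1.85 ± 0.32 (standard error, adjusted p = 0.269 in limma). Sham hearts, at 0.15 to 0.38 FPKM, were as low as TAC hearts, so that all 3 LD libraries stood above the other 6. Summed neutrophil markers, of which Ly6g was at 0 in all 6 libraries, were 4.05 to 15.9 FPKM in TAC and 4.14 to 24.4 FPKM in LD, ranges that overlap. Their part in Pglyrp1 was not tested. Pglyrp1 passed the filter on low values only through the LD libraries, as 24 of the 10955 genes did, so that it had to differ.

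Rasd1, a Ras-like protein induced by dexamethasone, was at 0.993, 1.07 and 0 FPKM in TAC and at 7.20, 3.20 and 8.09 FPKM in LD, a difference of 2.08 ± 0.37. Lcn2, the iron-carrier scavenger lipocalin 2, was at 1.07, 2.33 and 0.233 FPKM in TAC and at 6.11, 6.04 and 4.01 FPKM in LD, a difference of 1.63 ± 0.34. Pnmt, which makes adrenaline from noradrenaline, was at 0.901, 1.94 and 0.894 FPKM in TAC and at 3.67, 5.18 and 10.4 FPKM in LD, a difference of 1.65 ± 0.34. The LD levels of Pnmt spanned those of sham hearts (4.78 to 7.30 FPKM), while those of Lcn2 and Rasd1 lay above all 3 sham values. Gchfr, the feedback regulator of GTP cyclohydrolase, which starts the synthesis of tetrahydrobiopterin, was at 1.45, 3.79 and 0 FPKM in TAC and at 12.6, 7.75 and 20.0 FPKM in LD, a difference of 2.58 ± 0.51. TAC replicate 3 was listed at 0 for Pglyrp1, Rasd1, Gchfr, Pmf1 and Lin7b. Without that library the differences were 1.77, 1.73 and 1.98 for Pglyrp1, Rasd1 and Gchfr.

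Epha2, an ephrin receptor kinase of epithelial and vascular cells, was at 1.07, 1.62 and 0.999 FPKM in TAC and at 3.28, 4.23 and 6.28 FPKM in LD. Lsg1, a GTPase that frees the large ribosomal subunit for use, was at 8.22, 7.15 and 5.52 FPKM in TAC and at 14.6, 16.2 and 18.4 FPKM in LD. Prelid2, of a family of lipid carriers, was at 2.53, 2.38 and 3.29 FPKM in TAC and at 16.4, 7.11 and 7.24 FPKM in LD. The TAC and LD values of these 3 genes stood apart by 1.30 ± 0.30, 1.14 ± 0.24 and 1.5 ± 0.33 on the log2 scale. Pmf1 (a kinetochore protein, 2.2 ± 0.42), Haghl (1.92 ± 0.37) and Lin7b (a scaffold protein of cell junctions, 2.37 ± 0.55) complete the group with Fos, which is described among the immediate early genes. Exons of Haghl overlap those of Narfl by 543 bases on the other strand, and no step that marks the strand is named, so its fragments may come from either gene.

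Among the 12 genes of smallest p that were lower in LD, Sox7, a transcription factor of endothelial cells (chr14:63943673-63950732 in GRCm38), came first. It was at 13.7, 15.2 and 18.9 FPKM in TAC replicates 1, 2 and 3, at 6.30, 6.82 and 5.75 FPKM in LD and at 12.3 to 14.3 FPKM in sham hearts. The 3 LD libraries were the lowest of the 9. The log2 difference was -1.21 ± 0.23 (adjusted p = 0.269 in limma), with a 95% confidence interval from -1.69 to -0.72, and it stayed between -1.30 and -1.09 when any single TAC or LD library was left out.

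Lgals9, which encodes the lectin galectin 9, was at 16, 21.6 and 22.2 FPKM in TAC and at 6.98, 11.4 and 4.91 FPKM in LD, a difference of -1.31 ± 0.29. Ly96 (MD-2), the partner of TLR4 in sensing lipopolysaccharide, was at 12.1, 5.49 and 13.2 FPKM in TAC and at 3.03, 2.66 and 0 FPKM in LD, a difference of -2.12 ± 0.49. Both genes were lower in all 3 LD libraries than in any TAC library. Klf3, a zinc finger repressor, was at 11.1, 13.9 and 14.1 FPKM in TAC and at 7.23, 5.53 and 3.10 FPKM in LD, a difference of -1.21 ± 0.28. Klhl2, an adaptor of a ubiquitin ligase, differed by -1.25 ± 0.28. Ube2c, a ubiquitin-conjugating enzyme of mitosis, differed by -1.16 ± 0.26 and Chek2, a DNA damage checkpoint kinase, by -1.06 ± 0.26. Exons of Ube2c overlap the muscle gene Tnnc2 on the other strand by 144 bases, and those of Zcchc17 (-1.26 ± 0.29) overlap Fabp3 by 81 bases. Fam78b (-1.16 ± 0.27), Zfp874b (-1.16 ± 0.27), Fam102a (-1.07 ± 0.26) and Arntl fill the 12. The plot of the leading genes shows that the groups were separate for each of these 24 genes, which is how they were chosen. Their direction was the same in all 493 values from the alternative settings. Genes chosen for separate groups largely keep their direction when libraries are left out, so these values are no independent support.

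**Figure D2:**
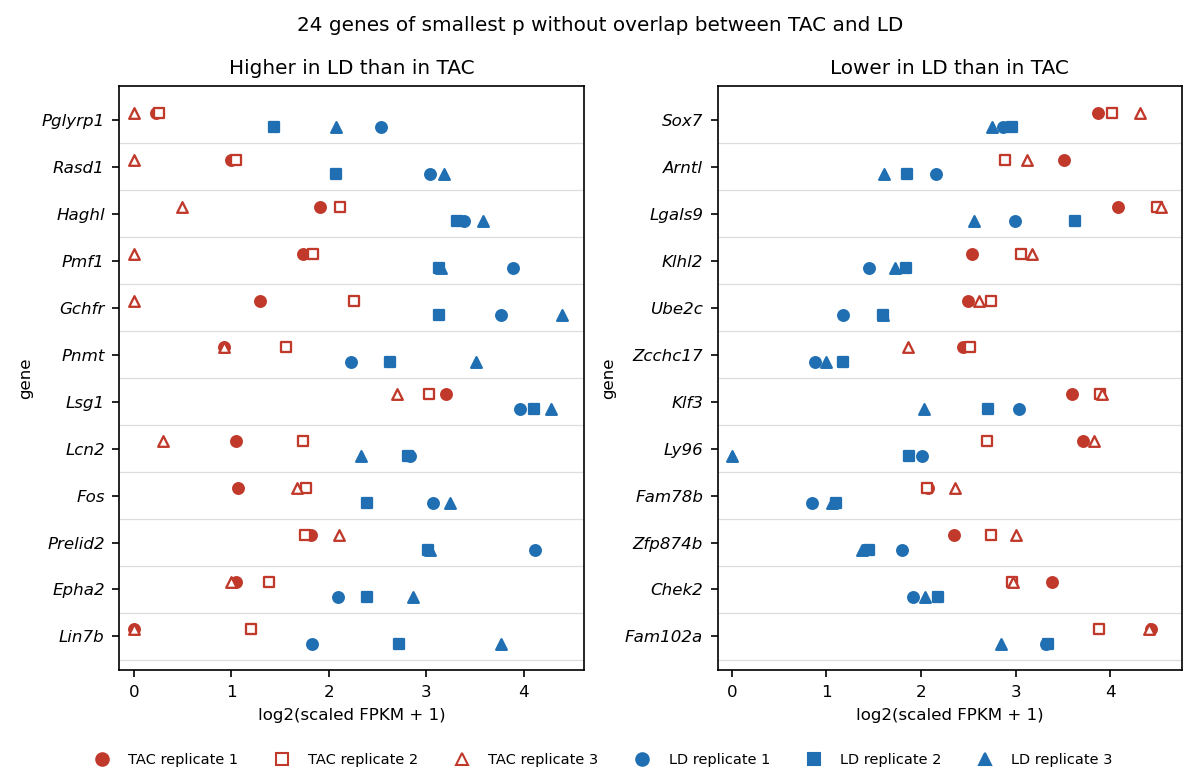
Level of the 24 genes of smallest p whose TAC and LD values did not overlap, 1 point per library (log2 of scaled FPKM + 1); red is TAC, blue is LD, and open symbols are the libraries whose recovered counts were mostly even. TAC replicate 3 lies at 0 for 5 of the genes on the left, and LD replicate 3 lies at 0 for Ly96 on the right.

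Of 20 measured clock genes, 12 lay above 0 and 8 below. The 4 with an unadjusted p under 0.05 were Arntl, which was lower in LD, and Dbp, Nr1d1 and Per1, which were higher. Arntl (chr7:113207465-113314126 in GRCm38), the activating arm, was at 10.4, 6.43 and 7.72 FPKM in TAC replicates 1, 2 and 3 and at 3.46, 2.60 and 2.05 FPKM in LD. Sham hearts had 4.97 to 7.19 FPKM, so the 3 LD libraries were the lowest of the 9. The log2 difference was -1.31 ± 0.27 (adjusted p = 0.31 in limma). Dbp, a clock output factor, was at 6.94, 8.54 and 6.14 FPKM in TAC and at 26.5, 12.4 and 19.1 FPKM in LD, a difference of 1.26 ± 0.31. Nr1d1 (REV-ERB alpha), the repressor of Arntl, was at 8.80, 7.40 and 3.66 FPKM in TAC and at 11.2, 18.7 and 17.7 FPKM in LD, a difference of 1.18 ± 0.31. Per1, of the repressing arm, was at 12.5, 6.64 and 7.03 FPKM in TAC and at 21.7, 14.1 and 19.2 FPKM in LD, a difference of 1.02 ± 0.28. In all 3 of these genes the lowest LD library stood above the highest TAC library. Exons of Dbp overlap those of Sphk2 by 539 bases and those of Nr1d1 overlap those of Thra by 263 bases, both on the other strand.

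These 3 higher genes and 1 lower gene were 15.0% and 5.00% of the list, against 4.55% and 4.13% of all genes tested. The median difference over the list was 0.10, beside 0.01 over all genes tested; it was 0.03 without TAC replicate 2, 0.04 without LD replicate 3 and -0.07 in the 5 libraries without an excess of even counts. A further 4 clock genes were picked after their values were seen. Clock, the partner of Arntl, was at 5.35, 6.46 and 9.25 FPKM in TAC and at 5.62, 4.20 and 2.86 FPKM in LD (-0.62 ± 0.29), with overlapping groups. Nfil3, which competes with DBP for its sites, was at 3.70, 3.07 and 2.48 FPKM in TAC and at 1.57, 1.78 and 2.39 FPKM in LD (-0.48 ± 0.26). Cry2 (0.31 ± 0.30) and Bhlhe41 (0.42 ± 0.25), both repressors, were slightly higher in all 3 LD libraries than in any TAC library. The labels give no time of day of collection. In the 5 libraries without an excess of even counts, where LD is set against TAC replicate 1, the differences were -1.64 for Arntl, 1.29 for Dbp, 0.74 for Nr1d1 and 0.49 for Per1.

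The promoter of Per1 is shown because it carries the E-box that ARNTL and CLOCK bind. A set of 4 motifs were searched on both strands of 300-base RefSeq promoters (GRCm38.p6, 250 bases before to 50 after the start): the E-box CACGTG, the half-site TGACG that cAMP-responsive factors bind, the half-site AGGTCA of nuclear receptors such as NR1D1 and the ROR proteins, and the interferon-stimulated response element core, which is GAAA, 2 bases of any kind and GAAA. Matches of different motifs can share bases, and none of those printed do. The sequence lists the 250 bases before 1 annotated start of Per1, chr11:69098699-69098948, plus strand, with all matches in capitals: TGACG starting 246 bases before the start, CACGTG at 166 and AGGTCA, read on the other strand, at 137.
Per1 promoter: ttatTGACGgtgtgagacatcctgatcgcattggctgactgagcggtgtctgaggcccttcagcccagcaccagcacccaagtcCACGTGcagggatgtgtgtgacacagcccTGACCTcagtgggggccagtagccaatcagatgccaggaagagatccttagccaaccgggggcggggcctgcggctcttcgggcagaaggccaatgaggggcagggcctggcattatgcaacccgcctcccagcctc
The E-box occurred in 9.99% of the promoters of genes tested and in 6 of 24 promoters (25%) of the 16 clock genes that matched. These matches are descriptions of the letters in the window.

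Immediate early genes were more often above 0 than below. Of 31 measured, 19 lay above 0 (61.3%, against 51.0% of all genes tested) and 12 below. At an unadjusted p under 0.05, 9 were higher (29.0%, background 4.55%) and 2 were lower (6.45%, background 4.13%). Of the 31, 10 were higher without overlap (background 5.92%) and 3 were lower without overlap (background 5.72%). The median difference was 0.37 over the list and 0.01 over all genes tested. The list and its members were chosen with earlier results of these data known, so these counts are a description.

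Fos (chr12:85473890-85477273 in GRCm38), a subunit of the AP-1 transcription factor, was at 1.09, 2.41 and 2.18 FPKM in TAC replicates 1, 2 and 3 and at 7.41, 4.26 and 8.46 FPKM in LD, a log2 difference of 1.40 ± 0.31 (adjusted p = 0.34 in limma). Nr4a1, an orphan nuclear receptor, was at 2.48, 2.59 and 2.17 FPKM in TAC and at 17.7, 4.23 and 12.1 FPKM in LD, a difference of 1.67 ± 0.41. LD replicate 2 was the lowest of the LD libraries for both, and still above every TAC library. Dusp1, the phosphatase that switches off p38 and JNK, was at 53.8, 40.9 and 26.1 FPKM in TAC and at 122.0, 60.9 and 88.5 FPKM in LD, a difference of 1.15 ± 0.30. Zfp36 (tristetraprolin), which destabilizes cytokine mRNAs, was at 19.8, 19.2 and 18.7 FPKM in TAC and at 42.8, 26.3 and 48.2 FPKM in LD, a difference of 0.94 ± 0.25. Sham hearts had 5.75 to 9.04 FPKM of Fos, 7.31 to 16.2 FPKM of Nr4a1, 92.3 to 100.1 FPKM of Dusp1 and 25.6 to 31.2 FPKM of Zfp36. For these 4 genes every TAC library lay below every sham library, while the LD range overlapped the sham range, as the plot of clock and immediate early genes shows. The difference of TAC from sham was -1.51 ± 0.31 for Fos and -1.68 ± 0.41 for Nr4a1, and it shares the TAC libraries with the comparison of LD with TAC, so the 2 values are not independent.

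**Figure D3:**
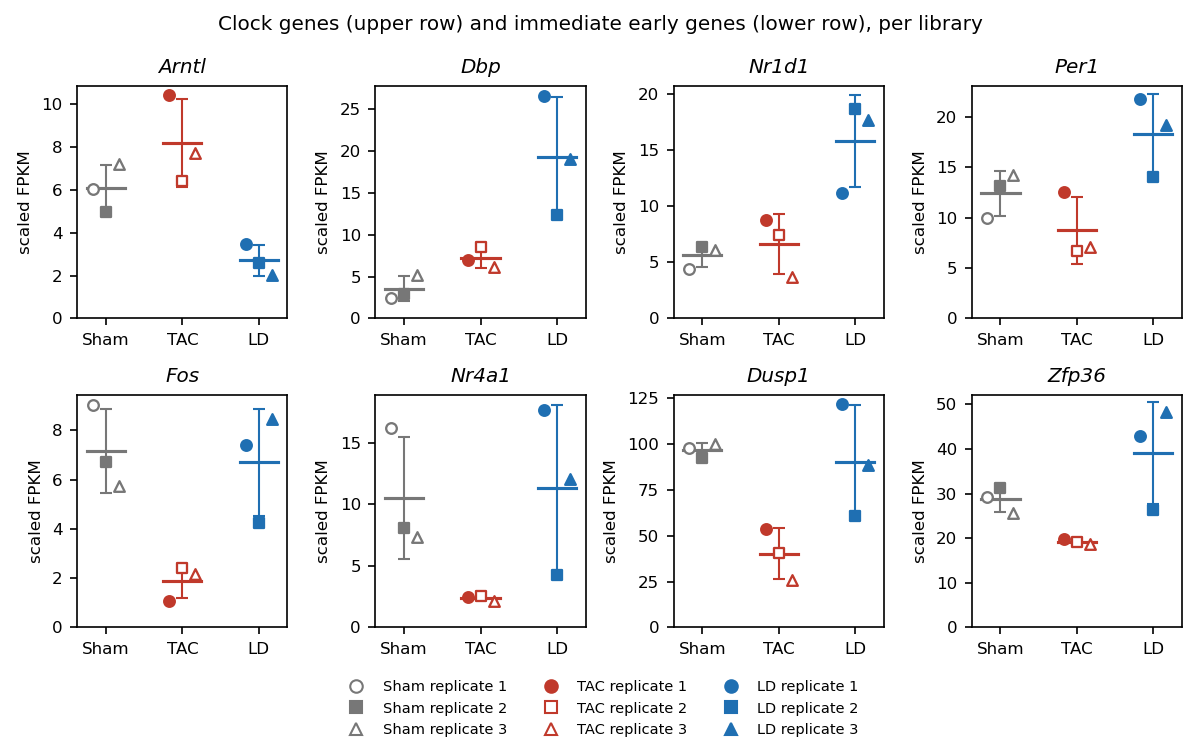
Scaled FPKM of 4 clock genes (upper row) and 4 immediate early genes (lower row) in sham, TAC and LD hearts; points are libraries, horizontal lines group means, error bars SD over 3 libraries, and open symbols the libraries whose recovered counts were mostly even. Arntl is lowest in LD and Dbp, Nr1d1 and Per1 are highest there, while the lower row is lowest in TAC.

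Named after their values were seen, Egr1 was at 8.45, 16.2 and 6.59 FPKM in TAC and at 42.2, 18.7 and 24.1 FPKM in LD (1.37 ± 0.37), Junb differed by 1.15 ± 0.33 and the antiproliferative gene Btg2 by 0.78 ± 0.24, all without overlap. The 2 genes of the list that were lower at an unadjusted p under 0.05 were the Kruppel-like factors Klf10 and Klf4. Klf10 was at 12.2, 14.5 and 14.2 FPKM in TAC and at 8.12, 10.0 and 6.31 FPKM in LD (-0.69 ± 0.24), and Klf4 at 47.5, 54.8 and 61.2 FPKM in TAC and at 44.5, 26.2 and 33.2 FPKM in LD (-0.67 ± 0.24). Across the list the mean level was 0.56, -0.06 and 0.38 log2 units from the TAC mean in LD replicates 1, 2 and 3, against -0.21, 0.20 and 0.01 in TAC replicates 1, 2 and 3, so LD replicate 2 lay within the TAC range. The median of the list was 0.53 in the 5 libraries without an excess of even counts, 0.23 after removal of the GC and length trends and without LD replicate 1, 0.24 without TAC replicate 1 and without LD replicate 3, and 0.02 with limma's array weights.

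The promoters of Fos and Nr4a1 are shown because these genes have the smallest p of the list and cAMP-responsive sites are a textbook feature of both. The half-site TGACG occurred in 18 of 29 promoters (62.1%) of the 23 immediate early genes that matched and in 31.0% of the promoters of genes tested. In Fos (chr12:85473640-85473889, plus strand) it starts 129 and 66 bases before the start. In Nr4a1 (chr15:101266596-101266845, plus strand) it lies on the other strand, from 233, 213, 69 and 40 bases before the start. Capitals mark the half-site.
Fos promoter: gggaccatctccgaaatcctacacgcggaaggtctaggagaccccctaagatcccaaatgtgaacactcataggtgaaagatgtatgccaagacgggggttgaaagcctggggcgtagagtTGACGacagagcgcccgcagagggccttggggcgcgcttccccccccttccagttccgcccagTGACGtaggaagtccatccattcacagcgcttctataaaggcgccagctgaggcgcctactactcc
Nr4a1 promoter: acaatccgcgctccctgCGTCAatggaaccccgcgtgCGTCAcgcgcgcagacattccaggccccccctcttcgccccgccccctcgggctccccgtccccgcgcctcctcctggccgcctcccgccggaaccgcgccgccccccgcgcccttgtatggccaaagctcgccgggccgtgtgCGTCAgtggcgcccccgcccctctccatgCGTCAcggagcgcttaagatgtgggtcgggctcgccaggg

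Endothelial markers lay on both sides of 0. Of 31 measured markers, 14 lay above 0 and 17 below, with a median of -0.04 (0.05 without TAC replicate 2 and -0.22 without TAC replicate 3), while 4 were lower at an unadjusted p under 0.05 (12.9%, background 4.13%) and 0 were higher. The 4 were Sox7, Sox18, Klf4 and Eng. Sox18, like Sox7 a SoxF transcription factor, was at 78.2, 79.1 and 75 FPKM in TAC and at 52.3, 57.7 and 42.1 FPKM in LD (-0.61 ± 0.21). Eng, endoglin, a co-receptor for TGF-beta family ligands, was at 203.3, 182.8 and 143.9 FPKM in TAC and at 126.4, 131.5 and 106.8 FPKM in LD (-0.53 ± 0.23). The summed level of 6 defining endothelial markers (Pecam1, Cdh5, Kdr, Tie1, Emcn and Vwf) was 230.2 to 310.4 FPKM in TAC and 237.5 to 324.4 FPKM in LD, ranges that overlap. In bulk tissue, fewer cells of a type and less RNA per cell cannot be told apart.

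Of 26 measured complement and coagulation genes, 21 lay below 0, and 4 were lower at an unadjusted p under 0.05 (15.4%, background 4.13%). These were Thbd, Procr, Pros1 and C5ar1. Thbd, thrombomodulin, was at 13.9, 31.7 and 29.6 FPKM in TAC and at 13.2, 11.4 and 11.1 FPKM in LD (-0.94 ± 0.30). Procr, the endothelial receptor of protein C, was at 2.26, 4.29 and 3.92 FPKM in TAC and at 0.858, 1.91 and 0.320 FPKM in LD (-1.19 ± 0.39). Pros1, protein S, was at 12.6, 19.1 and 18.9 FPKM in TAC and at 11.6, 8.76 and 6.68 FPKM in LD (-0.84 ± 0.29). Thbd in TAC replicate 1 was close to the LD values, and the difference in the 5 libraries without an excess of even counts was -0.22. The list median was -0.28 with all libraries, -0.15 without TAC replicate 2 and -0.07 in those 5.

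Angiogenic ligands and receptors had a median of 0.06 over 27 measured genes (-0.01 without TAC replicate 2). In each direction 1 gene was past an unadjusted p of 0.05 (3.70% each, background 4.55% higher and 4.13% lower). Vegfc, the ligand of lymphatic growth, was at 1.09, 4.51 and 2.53 FPKM in TAC and at 9.90, 5.83 and 3.87 FPKM in LD (1.05 ± 0.40), and Nrp1, a VEGF co-receptor, at 49.2, 71.5 and 82.7 FPKM in TAC and at 46.7, 44.9 and 33.8 FPKM in LD (-0.67 ± 0.28). Hif1a, the hypoxia factor, differed by -0.63 ± 0.31 with overlapping groups. In smooth muscle and pericytes, 3 of 22 measured markers were higher at an unadjusted p under 0.05 (13.6%, background 4.55%) and 1 was lower (4.55%, background 4.13%). Of the 22, 16 lay above 0 and 6 below, with a median of 0.14 that was 0.01 without TAC replicate 3. The summed level of 5 defining markers was 361.2 to 533.2 FPKM in TAC and 439.7 to 493.6 FPKM in LD, ranges that overlap. Myh11, the smooth muscle myosin, was at 23.9, 16.8 and 16.6 FPKM in TAC and at 41.5, 28.4 and 36.5 FPKM in LD (0.86 ± 0.25). Tagln differed by 0.76 ± 0.32 and Actg2 by 1.36 ± 0.53, but Actg2 by only 0.03 in the 5 libraries without an excess of even counts.

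Genes of the collagen matrix were mostly lower in LD, and the size and direction of the difference followed the TAC libraries used. Of 39 measured genes of the fibrillar matrix, 33 lay below 0 (84.6%, against 49.0% of all genes tested), with a median of -0.36, and 5 were lower at an unadjusted p under 0.05 (12.8%, background 4.13%). The mean level relative to the TAC mean was -0.54, 0.20 and 0.34 in TAC replicates 1, 2 and 3, against -0.41, -0.51 and -0.12 in LD replicates 1, 2 and 3, and -0.68 to -0.96 in sham hearts. TAC replicate 1 was thus the lowest operated heart of all 6, and TAC replicates 2 and 3, which had mostly even counts, were the highest. In sham hearts the mostly even replicates 1 and 3 (-0.68 and -0.96) lay on both sides of replicate 2 (-0.83). The part of the kind of counts in these levels was not tested, and the set of 5 libraries sets LD against this 1 TAC heart. Without TAC replicate 1 the median was -0.59, without TAC replicates 2 or 3 it was -0.23 and -0.19, without LD replicate 1 it was -0.23, and in the 5 libraries without an excess of even counts it was 0.22. Postn, periostin, a product of activated fibroblasts, was at 10.9, 41.1 and 172.7 FPKM in TAC and at 25.3, 15.1 and 45.5 FPKM in LD (-0.72 ± 0.72). Col1a1 was at 12.0, 16.9 and 19.7 FPKM in TAC and at 12.6, 10.4 and 22.6 FPKM in LD, and Col3a1 at 24.2, 45.2 and 84.2 FPKM in TAC and at 29.0, 20.2 and 42.1 FPKM in LD. For these 3 genes the groups overlapped, and the 95% confidence intervals ran from -2.26 to 0.82 (Postn), -0.77 to 0.51 (Col1a1) and -1.51 to 0.27 (Col3a1) on the log2 scale.

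Some matrix genes were lower in all 3 LD libraries than in any TAC library. Eln, elastin, was at 76.5, 72.4 and 121.9 FPKM in TAC and at 64.4, 42.8 and 44.8 FPKM in LD (-0.81 ± 0.26). Dcn, the proteoglycan decorin, was at 420.9, 901.9 and 627.8 FPKM in TAC and at 342.0, 417.9 and 298.5 FPKM in LD (-0.83 ± 0.29). Aspn, asporin, differed by -1.26 ± 0.48 with overlapping groups and by 0.09 in the 5 libraries without an excess of even counts. Among 22 measured genes of collagen processing, with a median of -0.08 (0.06 without TAC replicate 2 and -0.24 without LD replicate 3), P4ha1, a subunit of prolyl 4-hydroxylase, was at 22, 20.5 and 21.6 FPKM in TAC and at 8.16, 12.4 and 12.8 FPKM in LD (-0.91 ± 0.24). Crtap, of the prolyl 3-hydroxylation complex, was at 8.47, 13.4 and 7.30 FPKM in TAC and at 4.94, 3.71 and 4.46 FPKM in LD (-0.96 ± 0.26). In the 5 libraries without an excess of even counts their differences were -0.95 and -0.83. Plod2 (-0.63 ± 0.30) and the crosslinking enzyme Lox (-0.92 ± 0.47) overlapped between the groups.

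Fibroblast markers were likewise mostly below 0. Of 23 measured resident fibroblast genes, 18 lay below 0, the median was -0.35, and 4 were lower at an unadjusted p under 0.05 (17.4%, background 4.13%). Of 20 measured activated fibroblast genes, 14 lay below 0 and the median was -0.25. In the 5 libraries without an excess of even counts these medians were -0.01 and 0.43. The first was -0.20 without TAC replicate 2, -0.21 without LD replicate 3 and -0.53 without TAC replicate 1. The second was -0.03 without TAC replicate 3, -0.15 and -0.14 without LD replicates 1 or 2, -0.47 without LD replicate 3 and -0.56 without TAC replicate 1. Tcf21, a transcription factor of resident fibroblasts, was at 13.5, 21.8 and 17.3 FPKM in TAC and at 9.57, 8.67 and 12.2 FPKM in LD (-0.72 ± 0.26), and Medag differed by -0.68 ± 0.31. Meox1, a regulator of fibroblast activation, was at 17, 28.1 and 39.2 FPKM in TAC and at 8.55, 10.7 and 16.5 FPKM in LD (-1.14 ± 0.34). Timp1, an inhibitor of matrix proteases, was at 8.09, 8.34 and 14.9 FPKM in TAC and at 3.22, 4.73 and 5.73 FPKM in LD (-1.02 ± 0.40). The summed level of the 6 defining fibroblast markers ran from 1202 to 2219 FPKM in TAC and from 966.4 to 1618 FPKM in LD.

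In the TGF-beta pathway, which drives fibroblast activation, 25 of 37 measured genes lay below 0 with a median of -0.15, and 4 were lower at an unadjusted p under 0.05 (10.8%, background 4.13%). The median was -0.03 without TAC replicate 3, -0.29 without TAC replicate 1, 0.03 in the 5 libraries without an excess of even counts and 0.01 with the term for mostly even counts. The genes of smallest p were Smad6, Tgif1 and Skil, which are known as inhibitors of the pathway. Smad6 was at 6.90, 15.2 and 12.3 FPKM in TAC and at 5.78, 3.73 and 4.88 FPKM in LD (-1.06 ± 0.29). Tgif1 was at 2.37, 1.56 and 2.55 FPKM in TAC and at 0.391, 1.01 and 0 FPKM in LD (-1.15 ± 0.32), and Skil differed by -0.80 ± 0.27. All 3 were lower in every LD library than in any TAC library. Matrix proteases and their inhibitors had a median of -0.12 over 28 measured genes, which was -0.27 without TAC replicate 1, -0.25 without LD replicate 2, -0.19 without LD replicate 3 and 0.05 in the 5 libraries without an excess of even counts. Mmp14, a membrane-bound protease, was at 18.6, 25.7 and 24 FPKM in TAC and at 9.94, 15.8 and 9.04 FPKM in LD (-0.94 ± 0.26), and Adamts1, a secreted protease, was at 1.85, 5.07 and 1.71 FPKM in TAC and at 10.4, 4.32 and 10.9 FPKM in LD (1.32 ± 0.40).

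**Figure D4:**
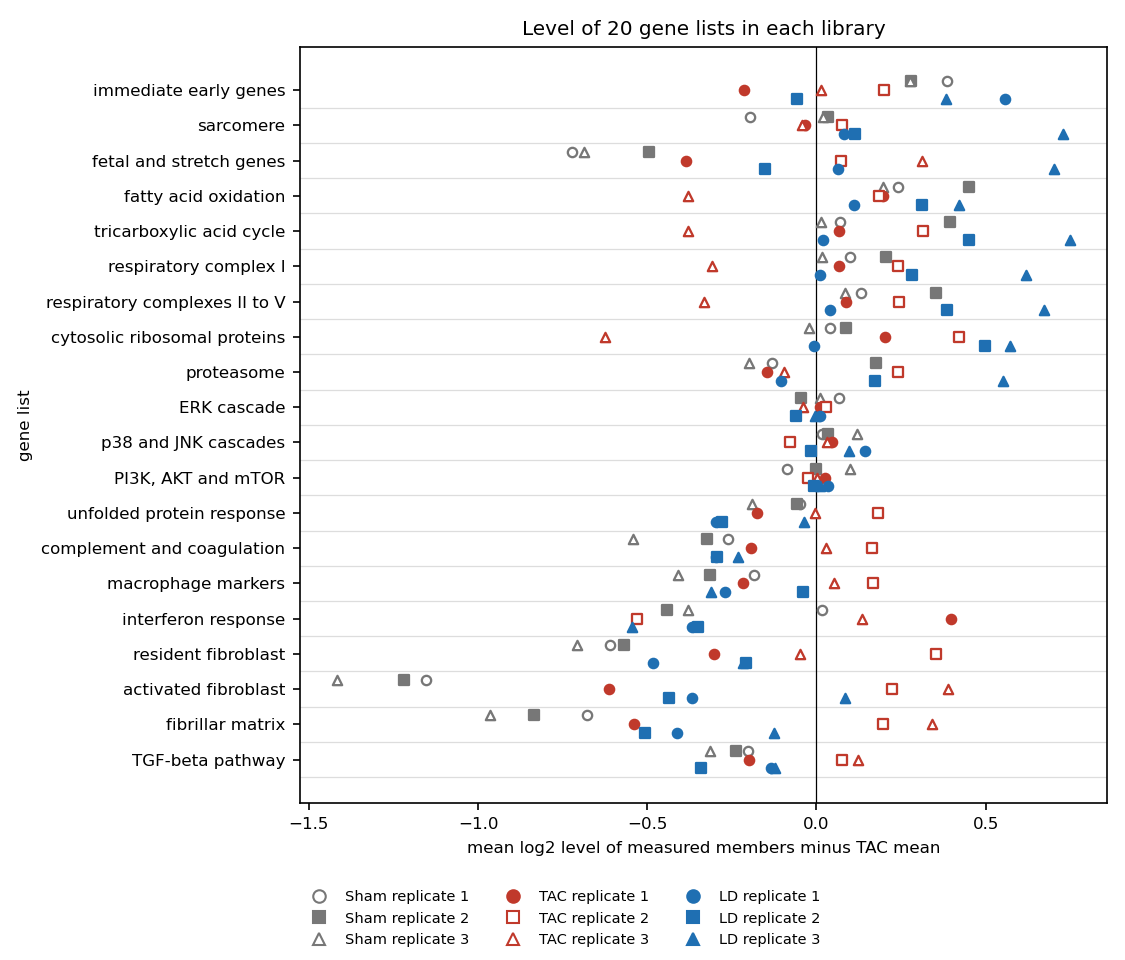
Mean log2 level of the measured members of 20 gene lists in each library, relative to the TAC mean of the list; grey is sham, red is TAC, blue is LD, and open symbols are the libraries whose recovered counts were mostly even. TAC replicate 1 sits with the LD libraries for the fibroblast and matrix lists, LD replicate 3 stands highest for sarcomere genes at 0.73, and TAC replicate 3 stands lowest for ribosomal proteins at -0.62.

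Interferon response genes were lower in LD as a list. Of 42 measured, 34 lay below 0 (81.0%, against 49.0% of all genes tested), the median was -0.46, 9 were lower at an unadjusted p under 0.05 (21.4%, background 4.13%) and 0 were higher. The level of the list relative to the TAC mean was 0.40, -0.53 and 0.13 in TAC replicates 1, 2 and 3, against -0.37, -0.35 and -0.54 in LD replicates 1, 2 and 3. TAC replicate 2 was thus as low as the LD libraries, and sham hearts ran from -0.44 to 0.02. Ifit1, a sensor of foreign RNA ends, was at 21.8, 5.07 and 25.6 FPKM in TAC and at 7.01, 4.51 and 5.00 FPKM in LD (-1.27 ± 0.46). Ifit3b, of the same family, was at 11.9, 3.54 and 7.78 FPKM in TAC and at 2.38, 2.86 and 1.98 FPKM in LD (-1.24 ± 0.38). Ifi44 was at 4.91, 4.05 and 3.62 FPKM in TAC and at 0.761, 3.14 and 0.501 FPKM in LD (-1.22 ± 0.41), and Ifi205 differed by -1.20 ± 0.39. Ifit3b has a near-identical neighbour, Ifit3, so its counts may depend on how shared reads were assigned. The list median was -0.79 in the 5 libraries without an excess of even counts and -0.25 without TAC replicate 1.

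The promoters of Ifit1 and Ifit3b are shown because both hold a pair of response elements. The core of 2 GAAA blocks occurred in 21 of 36 promoters (58.3%) of the 30 interferon response genes that matched and in 3.01% of the promoters of genes tested. In Ifit1 (chr19:34640639-34640888, plus strand) it lies on the other strand, from 104 and 85 bases before the start. In Ifit3b (chr19:34607707-34607956, plus strand) it lies on the other strand, from 188 and 154 bases before the start. Capitals mark the core.
Ifit1 promoter: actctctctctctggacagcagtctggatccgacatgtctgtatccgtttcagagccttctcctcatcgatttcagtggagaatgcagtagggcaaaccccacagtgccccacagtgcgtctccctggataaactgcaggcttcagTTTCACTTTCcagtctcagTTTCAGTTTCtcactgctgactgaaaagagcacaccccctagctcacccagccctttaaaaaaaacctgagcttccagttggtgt
Ifit3b promoter: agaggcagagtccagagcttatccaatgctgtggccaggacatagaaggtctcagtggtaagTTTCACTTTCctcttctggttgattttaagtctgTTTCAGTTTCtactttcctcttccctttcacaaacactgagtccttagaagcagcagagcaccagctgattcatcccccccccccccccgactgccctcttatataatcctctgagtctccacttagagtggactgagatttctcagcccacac

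Immune genes were otherwise mixed. Of 12 measured antigen presentation genes, 10 lay above 0 (83.3%, against 51.0% of all genes tested), with a median of 0.34. At an unadjusted p under 0.05, 1 of them was higher (8.33%, background 4.55%). That median was 0.15 without the replicates 3 of both groups and 0.39 in the 5 libraries without an excess of even counts. Of 26 measured macrophage markers, 18 lay below 0 with a median of -0.24 (-0.12 without LD replicate 3, -0.38 without LD replicate 2 and -0.02 in the 5 libraries without an excess of even counts), and the summed level of 6 defining markers was 126.9 to 162.1 FPKM in TAC and 122.4 to 172.3 FPKM in LD. Trem2, a lipid receptor of macrophages, was at 6.18, 10.5 and 2.95 FPKM in TAC and at 10.3, 14.7 and 21.9 FPKM in LD (1.22 ± 0.40). Fcgr3, an antibody receptor, differed by -0.65 ± 0.27 and the integrin gene Itgam by -0.98 ± 0.43. All 3 macrophage genes overlapped between the groups. Of 27 measured chemokines and cytokines, 19 lay below 0 with a median of -0.44, which was -0.19 without LD replicate 3, -0.29 without TAC replicate 2, -0.07 without the replicates 3 of both groups and -0.18 in the 5 libraries without an excess of even counts. Il34, a ligand of the CSF1 receptor, was at 4.37, 4.72 and 6.62 FPKM in TAC and at 1.52, 2.76 and 1.46 FPKM in LD (-1.11 ± 0.27). Ccl12, a monocyte chemokine, differed by -1.37 ± 0.50, and Cx3cl1, fractalkine, was at 1.71, 3.88 and 0.821 FPKM in TAC and at 6.09, 4.31 and 4.49 FPKM in LD (1.03 ± 0.34). Defining T cell markers were low, with sums up to 0.654 FPKM in TAC and 1.21 FPKM in LD and Cd2 at 0 in all 6 libraries.

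Genes of the contractile apparatus were mostly higher in LD. Of 32 measured sarcomere genes, 26 lay above 0 (81.2%, against 51.0% of all genes tested), the median was 0.29, and 8 were higher at an unadjusted p under 0.05 (25%, background 4.55%). Myh7, the slow beta myosin heavy chain that is typical of the fetal and failing mouse ventricle, was at 312.6, 232.2 and 340.6 FPKM in TAC and at 611.0, 376.0 and 1288 FPKM in LD (1.19 ± 0.37). Myh6, the fast alpha chain, was at 2568, 2208 and 2577 FPKM in TAC and at 3476, 3252 and 6417 FPKM in LD (0.77 ± 0.29). Both chains were higher in all 3 LD libraries than in any TAC library, and LD replicate 3 was highest. Myom2, an M-band protein, was at 143.3, 147.3 and 83.5 FPKM in TAC and at 166.9, 250.7 and 298.1 FPKM in LD (0.93 ± 0.30), and Mybpc3, myosin-binding protein C, differed by 0.72 ± 0.29 with overlapping groups. The list level was 0.08 and 0.11 above the TAC mean in LD replicates 1 and 2 and 0.73 above it in LD replicate 3. Without LD replicate 3 the median was 0.05, and without LD replicate 1 it was 0.45. Exons of Myh7 overlap antisense RNAs, among them Mhrt, by up to 189 bases.

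For the stress genes of the fetal programme the groups overlapped and the intervals of the difference included 0. Nppa, atrial natriuretic peptide, was at 87.9, 216.8 and 397.5 FPKM in TAC and at 181.9, 159.3 and 557.5 FPKM in LD, a difference of 0.36 with a 95% confidence interval from -0.74 to 1.47. Nppb, B-type natriuretic peptide, was at 34.4, 71.4 and 63.6 FPKM in TAC and at 41.0, 63.8 and 198.5 FPKM in LD, a difference of 0.57 with an interval from -0.44 to 1.58. Acta1, skeletal alpha actin, was at 362.1, 966.4 and 1313 FPKM in TAC and at 638.8, 595.4 and 1568 FPKM in LD, a difference of 0.13 with an interval from -0.88 to 1.14. In the 5 libraries without an excess of even counts, the differences were 1.51 for Nppa, 1.20 for Nppb and 1.21 for Acta1. There LD is set against TAC replicate 1, which was the lowest TAC library for each of these genes. In TAC and in LD replicate 3 had the highest Nppa and Acta1, and for Acta1 the sign of the difference was negative with values as deposited (-0.02), with equal sums (-0.13) and without LD replicate 3 (-0.32). Of 20 measured fetal and stretch genes 14 lay above 0, with a median of 0.25, which was -0.01 without LD replicate 3, 0.09 without TAC replicate 1, 0.45 without TAC replicate 3 and 0.65 in the 5 libraries without an excess of even counts. Csrp3, a stretch-associated Z-disc protein, differed by 0.74 ± 0.31 and Gdf15, a stress cytokine, by -0.72 ± 0.34. Markers of atrial muscle moved with LD replicate 3: their summed level was 709.3 FPKM there, against 147.7 to 419.2 FPKM in TAC and 224.5 and 250.6 FPKM in LD replicates 2 and 1. Myl7, the atrial myosin light chain, named after its values were seen, was at 0.387, 3.82 and 0 FPKM in TAC and at 0, 1.88 and 49.5 FPKM in LD. The part of atrial tissue in Nppa and Myh7 was not tested.

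Calcium handling genes had a median of -0.12 over 28 measured genes (-0.24 without TAC replicate 1 and 0.04 in the 5 libraries without an excess of even counts). In each direction 1 gene was past an unadjusted p of 0.05 (3.57% each, background 4.55% higher and 4.13% lower). Cacna1c, the pore of the L-type calcium channel, was at 17.3, 7.16 and 12.5 FPKM in TAC and at 28.5, 19.2 and 18.2 FPKM in LD (0.83 ± 0.30). Sri, sorcin, which inhibits the ryanodine receptor, was at 45.2, 58.2 and 40.3 FPKM in TAC and at 39.3, 29.0 and 27.8 FPKM in LD (-0.57 ± 0.24). Atp2b1, a calcium pump of the cell membrane, overlapped between the groups (-0.59 ± 0.29). Among 28 measured ion channel genes, 4 were higher at an unadjusted p under 0.05 (14.3%, background 4.55%) and 2 were lower (7.14%, background 4.13%), with a median of 0.01. Kcnd2, a subunit of the transient outward current, was at 4.10, 4.43 and 6.36 FPKM in TAC and at 2.29, 2.18 and 1.06 FPKM in LD (-1.08 ± 0.30). Abcc8, a subunit of the ATP-sensitive potassium channel, was at 3.42, 1.91 and 2.56 FPKM in TAC and at 4.88, 5.18 and 7.21 FPKM in LD (0.90 ± 0.27). Kcnj5, of the acetylcholine-gated potassium channel, was at 3.56, 3.35 and 3.17 FPKM in TAC and at 6.95, 5.69 and 5.31 FPKM in LD (0.67 ± 0.23). The 3 potassium channel genes did not overlap between the groups and had like differences against TAC replicate 1 alone (-0.87, 0.59 and 0.60).

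Mitochondrial genes encoded in the nucleus mostly lay above 0 (as 51.0% of all genes tested did), by amounts close to the spread of the libraries. This held for 30 of 36 measured genes of respiratory complex I (median 0.39), 41 of 42 of complexes II to V (median 0.36), 22 of 23 of the tricarboxylic acid cycle (median 0.42) and 29 of 37 of fatty acid oxidation (median 0.36). The genes past an unadjusted p of 0.05 were few: 3 (8.33%), 1 (2.38%), 0 and 4 (10.8%) were higher, against 4.55% of all genes tested. The level of complex I was 0.07, 0.24 and -0.31 relative to the TAC mean in TAC replicates 1, 2 and 3, against 0.01, 0.28 and 0.62 in LD replicates 1, 2 and 3. LD replicate 1 thus lay below TAC replicates 1 and 2 and LD replicate 2 just above them, with TAC replicate 3 lowest and LD replicate 3 highest. Without TAC replicate 3 the medians of the 4 lists were 0.20, 0.22, 0.27 and 0.14, and without LD replicate 3 they were 0.24, 0.21, 0.25 and 0.22. Without both libraries the medians of the 4 lists were 0.08, 0.06, 0.02 and 0.07. With the GC and length trends removed from all libraries they were 0.20, 0.21, 0.41 and 0.25.

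Ndufs1, the largest subunit of complex I, was at 44.8, 52.0 and 41.4 FPKM in TAC and at 58.0, 69.1 and 86.8 FPKM in LD (0.61 ± 0.25). Ndufa13 (0.52 ± 0.23) was also higher in all 3 LD libraries than in any TAC library. Atp5g2, a gene for the ring subunit of ATP synthase, was at 166.2, 170.1 and 81.3 FPKM in TAC and at 177.8, 285.8 and 344.3 FPKM in LD (0.97 ± 0.32). Atp5e differed by 0.76 ± 0.36, Uqcrq by 0.63 ± 0.31, and Got2, Idh2 and Sdhb by 0.64, 0.71 and 0.77. Without TAC replicate 3 these 5 genes differed by 0.32, 0.26, 0.30, 0.34 and 0.27, and in the 5 libraries without an excess of even counts by 0.09, 0.10, 0.09, 0.27 and 0.16. In fatty acid oxidation, Acads, the short-chain dehydrogenase, was at 38.2, 39.1 and 23.9 FPKM in TAC and at 42.0, 53.1 and 149.4 FPKM in LD (1.05 ± 0.38), and the thioesterase gene Acot1 differed by 1.02 ± 0.34.

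Of the kinases that restrain pyruvate dehydrogenase, 2 were lower and 1 was higher at an unadjusted p under 0.05, while Pdk1, named after its value was seen, overlapped between the groups (0.42). Pdk4, which is induced by fasting, was at 368.6, 628.4 and 568.1 FPKM in TAC and at 299.9, 279.1 and 357.2 FPKM in LD (-0.71 ± 0.26). Pdk3 was at 1.37, 2.78 and 0.943 FPKM in TAC and at 0.326, 0.443 and 0.219 FPKM in LD (-0.97 ± 0.35). Pdk2 was at 61.2, 66.2 and 34.3 FPKM in TAC and at 78.2, 88.7 and 98.4 FPKM in LD (0.75 ± 0.26). In none of these 3 did the groups overlap, and Pdk3 passed the filter on low values only through the TAC libraries. At an unadjusted p under 0.05, 1 of 34 measured genes of glycolysis and pyruvate dehydrogenase was higher (2.94%, background 4.55%). In the same list 3 were lower (8.82%, background 4.13%). The median over this list was 0.25. It was 0.15 without TAC replicate 3, 0.41 without LD replicate 1, 0.06 without LD replicate 3 and -0.03 without the replicates 3 of both groups.

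Genes for cytosolic ribosomal proteins, which are short and abundant, lay above 0 in 74 of 79 cases with a median of 0.35, and 3 of them were higher at an unadjusted p under 0.05 (3.8%, background 4.55%). Their level was 0.20, 0.42 and -0.62 in TAC replicates 1, 2 and 3, against -0.01, 0.50 and 0.57 in LD replicates 1, 2 and 3, and the median was 0.04 without TAC replicate 3 and -0.03 without the replicates 3 of both groups. Rps14 was at 2087, 2358 and 1520 FPKM in TAC and at 2372, 2608 and 5250 FPKM in LD (0.71 ± 0.33), and Rpl15 differed by 0.70 ± 0.31. Rpl7a, whose exons in GENCODE overlap small RNA genes, ranged from 5.87 to 125.2 FPKM in TAC (2.19 ± 0.85). Ribosomal proteins have many processed pseudogenes, so their counts depend on how shared reads were assigned. Proteasome subunits had a median of 0.32 over 31 genes, 0.50 without LD replicate 1, 0.09 without LD replicate 3 and 0.04 without the replicates 3 of both groups. Psmd4 was at 204.4, 198.1 and 140.5 FPKM in TAC and at 250.1, 267.6 and 296.9 FPKM in LD (0.60 ± 0.25), Psmb5 differed by 0.68 ± 0.31 and Psmd13 by 0.80 ± 0.38.

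Of 62 replication-dependent histone genes in the table, 13 passed the filter on low values, so their counts are not those of all members. Hist1h1c, a linker histone whose RNA can be polyadenylated, was at 15.0, 19.6 and 14 FPKM in TAC and at 56.6, 34.8 and 37.0 FPKM in LD (1.33 ± 0.42). Hist2h4 had 0 fragments in the 3 TAC libraries together and 62 in the 3 LD libraries. Against a floor of 3 fragments over the TAC group, the LD level was 17.8-fold. This value covers counting error only, not the spread between hearts, and takes 1 step of the FPKM values as 1 fragment. Hist1h4d had 0, 0 and 2 fragments in TAC and 31, 11 and 78 in LD. Both genes passed the filter only through the LD libraries, so that they had to differ. In sham replicates 1, 2 and 3 Hist2h4 had 14, 0 and 56 fragments and Hist1h4d had 0, 25 and 0, so the sham libraries spanned values as low as TAC and, for Hist2h4 in replicate 3 (9.43 FPKM), above every LD library. The H4 genes are near-identical copies, and most histone RNAs lack the poly-A tail on which these libraries were selected.

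**Figure D5:**
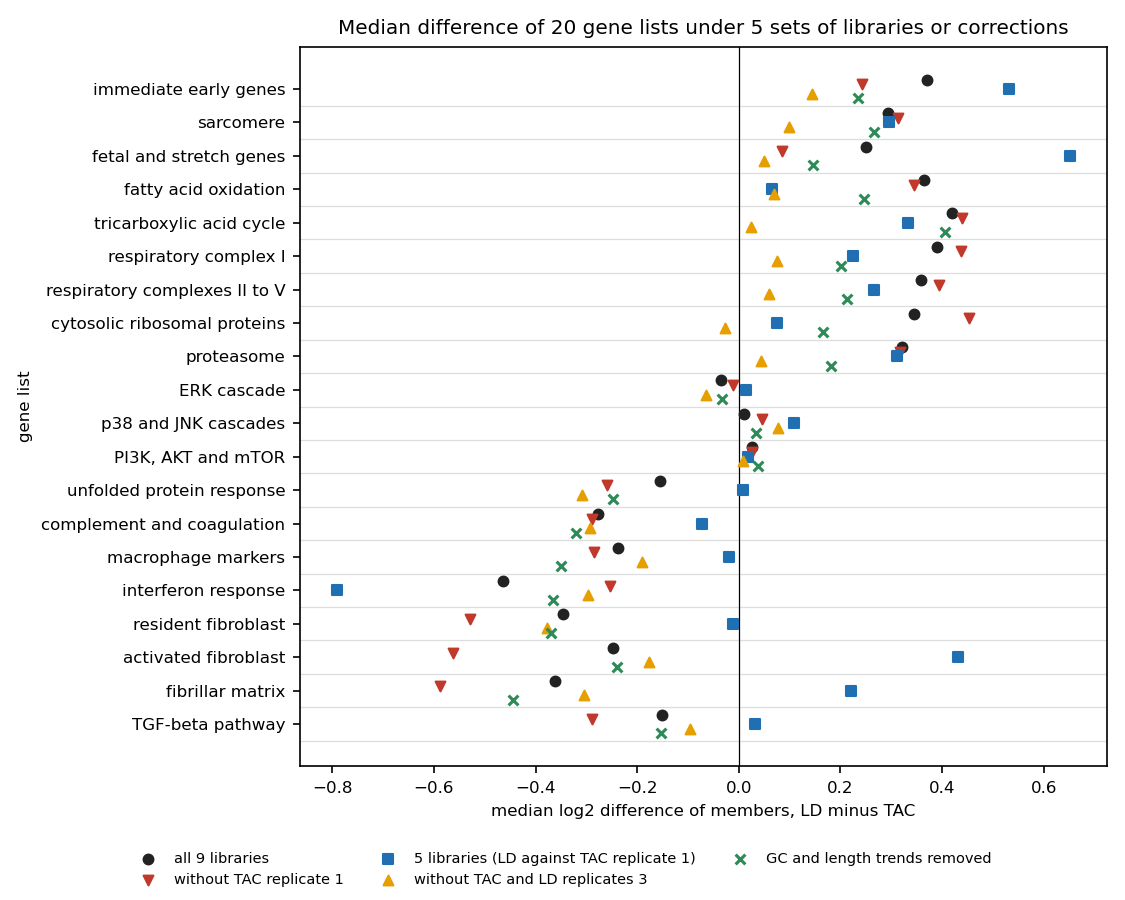
Median log2 difference of LD from TAC over the measured members of 20 gene lists, with all libraries (black), without TAC replicate 1 (red), in the 5 libraries without an excess of even counts (blue), without the replicates 3 of both groups (orange) and after removal of the GC and length trends (green). The fibroblast and matrix lists move from the left to 0 or beyond in the 5 libraries, the mitochondrial and ribosomal lists move close to 0 without the replicates 3, and the interferon list stays below 0 throughout.

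Genes of the kinase cascades named in the study's title had medians close to that of all genes tested. Of 34 measured genes of the ERK cascade, 15 lay above 0 and 19 below, with a median of -0.03. At an unadjusted p under 0.05, 1 was higher (2.94%, background 4.55%) and 2 were lower (5.88%, background 4.13%). Rps6ka1 (RSK1), a kinase activated by ERK, was at 2.99, 1.34 and 1.45 FPKM in TAC and at 3.40, 5.77 and 3.91 FPKM in LD (0.89 ± 0.30). Nras was at 26.4, 27.4 and 39.1 FPKM in TAC and at 25.8, 16.1 and 15.2 FPKM in LD (-0.69 ± 0.26), and Mapk6 (ERK3) at 5.54, 4.73 and 6.04 FPKM in TAC and at 3.81, 2.18 and 2.96 FPKM in LD (-0.71 ± 0.30). The groups of these 3 genes did not overlap, though Nras in TAC replicate 1 and LD replicate 1 was nearly equal. Of 34 measured genes of the p38 and JNK cascades, 19 lay above 0 and the median was 0.01. The 2 past an unadjusted p of 0.05 (both higher, 5.88%, background 4.55%) were Dusp1 and Map3k4 (0.66 ± 0.30), while Gadd45g differed by 0.54 ± 0.27. Of 40 measured genes of the PI3K, AKT and mTOR pathway, 21 lay above 0 and 19 below, with a median of 0.03. The only one past that p was Pik3ca, which was lower (2.5%, background 4.13%). Pik3ca, the catalytic p110 alpha subunit, was at 12.6, 14.1 and 14.5 FPKM in TAC and at 12.0, 8.64 and 4.98 FPKM in LD (-0.70 ± 0.28), with a 95% confidence interval from -1.30 to -0.09. Eif4ebp1 (0.62 ± 0.34) and Foxo1 (-0.47 ± 0.26), both substrates of the pathway, overlapped between the groups.

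Protein folding genes of the endoplasmic reticulum lay below 0 in 26 of 33 cases with a median of -0.15, and 3 were lower at an unadjusted p under 0.05 (9.09%, background 4.13%). Manf, a secreted chaperone, was at 17.1, 31.1 and 23.9 FPKM in TAC and at 14.9, 12.5 and 11.8 FPKM in LD (-0.80 ± 0.29). Sel1l, of the degradation machinery, was at 12.7, 13.2 and 19.3 FPKM in TAC and at 10.4, 9.91 and 4.45 FPKM in LD (-0.85 ± 0.30), and the oxidase gene Ero1l differed by -0.86 ± 0.35 with overlapping groups. The list median was -0.24 without TAC replicate 3, -0.26 without TAC replicate 1, -0.33 without LD replicate 3 and 0.01 in the 5 libraries without an excess of even counts. Antioxidant genes lay above 0 in 25 of 32 cases with a median of 0.17, which was -0.03 without TAC replicate 3, 0.30 without TAC replicate 2, 0.10 without LD replicate 3 and -0.08 without the replicates 3 of both groups. Prdx5, a peroxiredoxin, was at 898.3, 1093 and 754.3 FPKM in TAC and at 1173, 1320 and 2223 FPKM in LD (0.74 ± 0.29). Keap1, the inhibitor of NRF2, differed by 0.49 ± 0.23, and Gclc, the rate-limiting enzyme of glutathione synthesis, by -0.72 ± 0.29.

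Genes on the list of the corticosteroid response split evenly. Of 22 measured, 3 were higher and 3 lower at an unadjusted p under 0.05 (13.6% each, background 4.55% and 4.13%), with a median of -0.05 that was 0.11 without TAC replicate 2, 0.12 without LD replicate 3 and -0.20 without TAC replicate 3. Lcn2, Dusp1 and Per1, described above, were the higher ones, and Pdk4 was among the lower. Rasd1, described above as induced by dexamethasone and higher in LD, was not on this list, so the split does not count it. In the neurohormonal list, with a median of -0.04 over 33 measured genes (0.07 without TAC replicate 2 and -0.10 without TAC replicate 3), Pnmt was followed by Gnaq, the G protein subunit through which angiotensin and endothelin receptors signal, at 18.8, 21.4 and 22.7 FPKM in TAC and 17.4, 13.8 and 5.35 FPKM in LD (-0.87 ± 0.33). Ednrb, an endothelin receptor, differed by -0.90 ± 0.38 with overlapping groups. Of 11 measured red cell genes, 9 lay below 0. The median was -0.79 with all libraries, -0.16 without TAC replicate 2, -0.42 without LD replicate 3 and -0.33 in the 5 libraries without an excess of even counts. Hbb-bs, beta globin, was at 855.0, 3847 and 956.8 FPKM in TAC and at 503.8, 751.1 and 618.0 FPKM in LD (-1.25 ± 0.59), Hbb-bt differed by -1.31 ± 0.67 and Slc25a37, the iron importer of mitochondria, by -0.79 ± 0.31. Haemoglobin RNA made up 1.96% of all FPKM in TAC replicate 2 and 0.203% to 0.483% in the other TAC and LD libraries.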

How the data were processed

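Poly-T selected RNA of mouse heart was sequenced in 9 samples, 3 per group, and the authors deposited 1 table of FPKM values per gene and sample. Per the submitters' processing notes, reads were handled with fastp 0.20.0, CASAVA 1.8, DESeq, Cufflinks 2.2.1, HTSeq 0.7.2 and HISAT2 2.1.0 on GRCm38. The annotation and the tool behind the FPKM values were not given in the sources used here. Each column was matched to 1 sample by its name, and 0 columns were left without a sample. For all 16262 genes above 0, FPKM values came in whole steps (tolerance 0.001). A step was taken as 1 fragment, and the listed genes as all fragments, which gave fragment counts and library totals. What a step stands for in the 4 libraries with mostly even counts was not tested. Their counts and totals may therefore not compare with those of the other libraries. A 1-kilobase gene with 3 fragments has an FPKM of 0.166 to 0.405, limits that cover counting error only.

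Genes reaching FPKM 1 in 3 or more of the 6 TAC and LD libraries were scaled by the median of ratios, taken as log2(FPKM + 1) and fitted in R 4.3.3 with limma 3.58.1 over all 9 libraries (a mean for each group, 6 residual degrees of freedom, trended empirical Bayes), with two-sided moderated tests, Benjamini-Hochberg adjustment, threshold 0.05. All p-values are from this fit, errors of log2 differences are its standard errors, and differences on this scale are too small for low genes. The script was tested on simulated data. The p-values measure the spread between these libraries, which the labels call biological repeats.

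Named are, for either direction, 12 genes with the smallest p values whose groups do not overlap and whose mean FPKM is at least 3 in the higher group, none past the threshold; up to 4 genes of smallest p of each of the 48 gene lists described; and Nppa, Nppb, Acta1, Myh6, Myh7, Col1a1, Col3a1 and Postn. Predicted genes were counted, not named, and 1 gene that the rule names is not reported here. The comparison, lists and rules were chosen with earlier results of these data known, so lists have no test. Coordinates, exon overlaps and GC content came from GENCODE M21 (GRCm38), promoters from RefSeq (GRCm38.p6). Alternatives changed the pseudocount, filter, scaling, fit, weights and libraries; 3 were added after seeing the data: a term for libraries with mostly even counts, the 5 libraries without an excess of even counts (3 LD, TAC replicate 1, sham replicate 2), and removal of GC and length trends.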

Additional observations from a re-analysis of the deposited data

How the results depend on the processing

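Limma called 0 genes under each of the 21 alternatives that were run, so only counts at an unadjusted p under 0.05, list medians and single genes can be compared. These counts, higher and lower in LD, were 283 and 708 with values as deposited, 175 and 893 with equal sums, 314 and 296 with only the TAC and LD libraries, 757 and 753 with array weights, 253 and 252 without both replicates 3, 205 and 158 with a term for mostly even counts, and 278 and 169 in the 5 libraries without an excess of even counts; a filter at FPKM 5 left 279 lower. Without 1 library they ranged from 284 (without LD replicate 3) to 894 (without TAC replicate 1) for higher and from 261 to 780 for lower genes, with 328 higher without TAC replicate 3. TAC and LD libraries of the same replicate number had correlations of deviations between -0.0641 and -0.0227, and no library correlated best with its own number. The highest values were 0.311, 0.228 and 0.266 for TAC replicates 1, 2 and 3, with LD replicates 2, 3 and 1. These values showed no pairing by replicate number. They rest on deviations from means of 3 libraries, so they cannot decide whether samples were paired. With a replicate block the counts were 394 and 362, with 0 calls.

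Of the list medians, fibrillar matrix was 0.22, resident fibroblast -0.011, ERK 0.014 and p38 and JNK 0.11 in the 5 libraries; immediate early genes were 0.019 and PI3K, AKT and mTOR -0.014 with array weights; complex I was 0.075 without both replicates 3; and ERK was 0.0051 with the term for mostly even counts. Values as deposited gave -0.16, -0.12 and -0.10 for ERK, p38 and JNK, and PI3K, AKT and mTOR, and equal sums gave -0.26, -0.21 and -0.21; these scalings moved the median of all genes tested from 0.011 to -0.11 and -0.20. The last list was 0.12 without a filter and 0.067 with FPKM 5. Without 1 library, ERK ranged from -0.094 (without TAC replicate 3) to 0.00093, p38 and JNK from -0.044 to 0.12, and PI3K, AKT and mTOR from -0.0076 to 0.052.

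Of 2819 values of 136 named genes, most of them named for a small p, 2796 kept the direction, which that choice partly fixes. The 23 others came from 10 genes. Acta1 was -0.017 as deposited, -0.13 with equal sums, -0.32 with array weights and -0.12 with GC and length trends removed, and Nppa was -0.13 with array weights. Col1a1 and Postn were 0.17 and 0.33 with the term for mostly even counts. In the 5 libraries Col1a1, Col3a1, Postn, Aspn, Lox and Ednrb were 0.25, 0.26, 1.17, 0.086, 0.31 and 0.082, and Myl7 was -0.61 without both replicates 3. Without 1 library, Acta1 ranged from -0.42 to 0.51, Nppa from -0.21 to 0.87, Nppb from -0.075 to 1.05, Col1a1 from -0.44 to 0.092, Postn from -1.66 to 0.27 and Myl7 from -0.15 to 2.68. The cause of each reversal was not tested. Depth limits the low genes: a count of 0 allows up to 3 fragments.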
